A study of Mus musculus with 16 samples.

Results

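The glycolytic enzymes described here were 10 genes, Hk2, Hk3, Pfkl, Aldoa, Gapdh, Pgk1, Pgam1, Eno1, Pkm and Ldha, chosen by symbol from the 32285 genes counted in single-cell RNA-seq of mouse mammary tumors and bone marrow (BM). All 10 symbols were found, in 11 features of the count matrices, because Aldoa was listed under a pair of identifiers. The copy ENSMUSG00000030695 held nearly all of its UMIs and is the one described. UMIs are unique molecular identifiers, each of which stands for 1 captured RNA molecule.

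The study tested IACS-70654, an inhibitor of the bromodomain of the histone acetyltransferases CBP and p300, in mice carrying 2208L, a Trp53-null mammary tumor that was transplanted into the mammary fat pad of female BALB/c mice. There were 16 libraries. The 4 tumor libraries, 1 for each treatment, came from 2208L tumors treated with vehicle, with IACS-70654, with an antibody against PD-1 (anti-PD-1), or with IACS-70654 and anti-PD-1 together (combination). The 6 CD45+ BM libraries held CD45+Ter119-DAPI- cells and the 6 c-Kit+ BM libraries held lineage-negative c-Kit+CD45+ hematopoietic stem and progenitor cells (HSPCs). Each BM sort had 2 libraries from untreated mice without tumors, called WT here, 2 from 2208L-bearing mice given vehicle and 2 from 2208L-bearing mice given IACS-70654. Tumors were treated for 7 days, the course of the mice used for BM was 1 day shorter, and each sample held cells pooled from 3 mice. The labels do not say whether the 2 BM libraries of a group came from separate pools of mice, so p-values measure the spread between these libraries, which may be technical. One transplanted line stands for the tumor model, and its tumors were digested with collagenase. The study's methods describe no digestion of BM, whereas the labels carry the same digestion protocol for both tissues.

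Glycolysis splits glucose into pyruvate in the cytosol and yields ATP and NADH without oxygen. Hexokinases trap glucose in the cell by phosphorylation, phosphofructokinase commits the sugar to the pathway, aldolase splits it, and the lower steps recover ATP and end in pyruvate, which lactate dehydrogenase can reduce to lactate. Neutrophils have few mitochondria and are known to rely on glycolysis for energy, and most genes of the pathway are known targets of the hypoxia-inducible factor HIF-1, for which CBP and p300 are coactivators.

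Promoter sequences were available for all 10 enzymes, in 16 promoters of 300 bases from RefSeq on GRCm38.p6, 250 bases before to 50 after a transcript start. They are shown for 5 enzymes picked after their values were seen, namely the hexokinases Hk2 and Hk3, whose shares are compared between classes, Pfkl, with the largest changes in mature BM neutrophils, and Pgk1 and Ldha as examples of the lower steps. Capitals mark the letters ACGTG or GCGTG on either strand, the core that HIF-1 is known to bind. Each line gives the strand of the gene, and the sequence runs 5′ to 3′ on that strand.
Hk2 at chr6:82774405-82774704, minus strand: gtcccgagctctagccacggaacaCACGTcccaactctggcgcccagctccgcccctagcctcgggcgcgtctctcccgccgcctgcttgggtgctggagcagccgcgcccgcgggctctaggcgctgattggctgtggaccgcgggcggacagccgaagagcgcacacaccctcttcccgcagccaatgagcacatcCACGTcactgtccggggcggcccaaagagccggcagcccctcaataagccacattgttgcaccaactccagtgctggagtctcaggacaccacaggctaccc
Hk3 at chr13:55021336-55021635, minus strand: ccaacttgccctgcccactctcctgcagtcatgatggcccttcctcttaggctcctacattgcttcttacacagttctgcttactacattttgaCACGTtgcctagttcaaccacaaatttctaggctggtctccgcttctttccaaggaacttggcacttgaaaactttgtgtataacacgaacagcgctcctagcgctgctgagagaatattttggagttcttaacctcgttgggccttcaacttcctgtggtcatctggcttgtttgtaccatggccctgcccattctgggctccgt
Pfkl at chr10:78009758-78010057, minus strand: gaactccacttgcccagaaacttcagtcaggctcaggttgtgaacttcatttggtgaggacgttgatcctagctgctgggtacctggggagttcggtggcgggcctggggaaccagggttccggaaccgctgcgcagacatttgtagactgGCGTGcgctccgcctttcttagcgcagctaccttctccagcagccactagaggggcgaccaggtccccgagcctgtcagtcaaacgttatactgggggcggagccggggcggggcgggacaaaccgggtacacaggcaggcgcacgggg
Pgk1 at chrX:106186850-106187149, plus strand: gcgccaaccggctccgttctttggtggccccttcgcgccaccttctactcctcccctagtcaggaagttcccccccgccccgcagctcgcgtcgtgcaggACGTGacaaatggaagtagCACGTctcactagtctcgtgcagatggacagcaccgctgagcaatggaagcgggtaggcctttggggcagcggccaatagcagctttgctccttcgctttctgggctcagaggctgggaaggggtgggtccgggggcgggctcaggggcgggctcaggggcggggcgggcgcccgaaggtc
Ldha at chr7:46845554-46845853, plus strand: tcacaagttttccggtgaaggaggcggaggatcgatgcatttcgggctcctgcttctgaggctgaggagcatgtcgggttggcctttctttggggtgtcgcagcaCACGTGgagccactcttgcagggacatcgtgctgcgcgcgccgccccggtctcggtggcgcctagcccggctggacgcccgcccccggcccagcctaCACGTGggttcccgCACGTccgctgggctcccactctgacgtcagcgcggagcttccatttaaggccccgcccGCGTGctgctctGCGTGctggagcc

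Ldha carried 7 matches of the core in the promoter shown, where each CACGTG was counted once per strand. Another Ldha promoter, not shown, carried 2. Hk2 and Pgk1 carried 2 each, and Hk3 and Pfkl carried 1 each. At least 1 core stood in 14 of the 16 promoters and in at least 1 promoter of each of the 10 enzymes. Among all 32851 promoters of this length 43.8% held it, so a match is common. By gene, at least 1 promoter held it for 46.7% of 27025 genes. ACGTG was in 9 of the 16 promoters and 8 of the 10 enzymes, against 19.6% of promoters and 21.8% of genes. GCGTG was in 8 of the 16 and 5 of the 10, against 32.4% and 35.2%, and some promoters hold both. The palindrome CACGTG, which contains ACGTG and is the E-box of MYC and USF factors, occurred in 7.15% of all promoters and, among the enzymes, only in Ldha. Both cores contain the letters CG. Of the promoters shown, G and C made 67.3% in Hk2 and Ldha, 66.7% in Pgk1, 62.3% in Pfkl and 49.0% in Hk3. The median over all promoters was 52.7%. The part of base composition, and of the number of promoters per gene, in these shares was not tested. The matches describe letters only, and binding was not measured. In the GRCm38 annotation the genes themselves lie on 8 chromosomes: Aldoa and Ldha on 7, Gapdh and Hk2 on 6, Eno1 on 4, Pkm on 9, Pfkl on 10, Hk3 on 13, Pgam1 on 19 and Pgk1 on X.

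The tumor libraries held 15590289 to 43594797 UMIs. The CD45+ BM libraries differed in depth by group, with median UMIs per cell of 4113 and 4276.5 in WT, 5330.5 and 5328 with vehicle, then 6534 and 6596.5 with IACS-70654. Libraries of the same sort shared no cell barcode, and libraries of different sorts shared 6.25 on average, from 0 to 17. Cells were grouped into 19 classes from marker genes, 5 in tumors and 7 in each BM sort, and each class had at least 50 cells in every library of its sort. Mature BM neutrophils, for instance, had 290490 to 312970 of every 1000000 UMIs from 11 neutrophil markers and at most 34.2 from B cell markers. In tumor neutrophils the same 11 markers summed to 19937 to 40866 CPM, with 1 of them at 0 in the combination library and 3 in the IACS-70654 library, and in tumor macrophages 8 macrophage markers summed to 60866 to 96879. Class names were rebuilt from the counts here and stand for marker-like cells.

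Levels of the enzymes are given as CPM, the share of a gene in the UMIs of a class and library multiplied by 1000000, which counts 3′ ends and needs no scaling by transcript length. Gapdh, which oxidizes and phosphorylates the product of aldolase, ran from a median of 472 CPM in BM B cells to 2246 in tumor neutrophils. Pgk1, the kinase that returns the first ATP, spanned the least, 4.20-fold, from 113 in B cells to 474 in tumor cells. Ldha spanned 4.37-fold, from 147 in B cells to 642 in tumor monocytes. Tumor neutrophils stood highest of the 19 classes for Hk2 at 147, Aldoa at 823, Gapdh, Pgam1 at 485 and Eno1 at 545 CPM. Tumor cells stood highest for Pfkl at 97.0, Pgk1 and Pkm at 999. Of the 10 enzymes, only Pfkl had a highest class whose libraries lay clear of the next class in order. For the other 9 the ranges of the first and second class overlapped, as for Hk2, at 104 to 181 CPM in tumor neutrophils and 102 to 143 in tumor macrophages. The tumor medians are over libraries of 4 treatments.

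**Figure D1:**
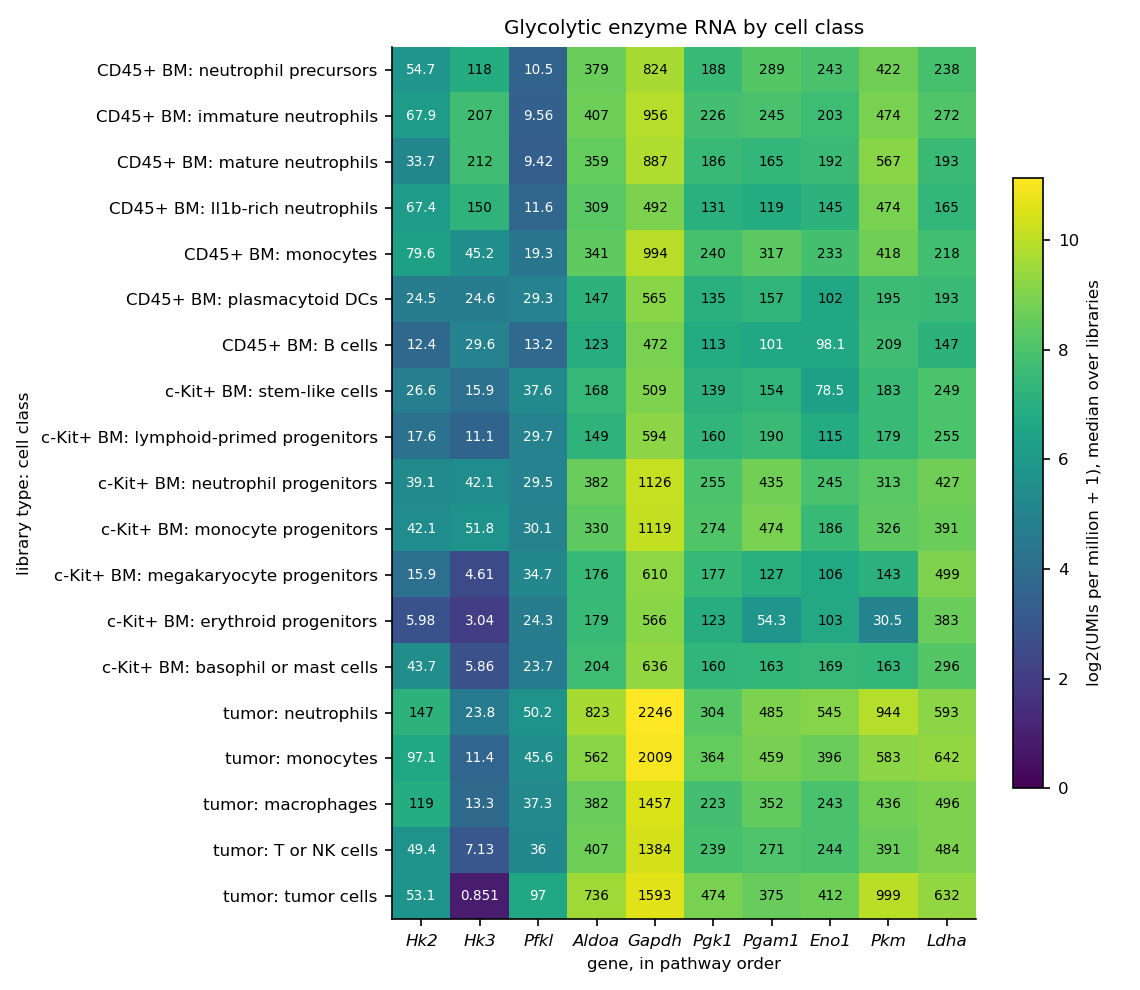
Levels of the 10 glycolytic enzymes in the 19 cell classes, with the median over libraries in CPM printed in each field and colored by log2(CPM + 1). Rows are classes of CD45+ BM, c-Kit+ BM and tumor, and columns are enzymes in pathway order. Hk3 is high in mature BM neutrophils, at 212 CPM, and near 0 in tumor cells, at 0.851.

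Hk3, a hexokinase of myeloid cells, differed most between classes, by 249-fold, from 212 CPM in mature BM neutrophils to 0.851 in tumor cells. It was at 22.7 to 34.6 CPM in BM B cells, where neutrophil markers also summed to 33642 to 84139. Whether RNA from neutrophils had a part in this level was not tested. Erythroid progenitors were lowest for Hk2 at 5.98, Pgam1 at 54.3 and Pkm at 30.5 CPM. Pkm, which makes pyruvate, thus spanned 32.7-fold and Hk2 24.6-fold. Pfkl was lowest in mature BM neutrophils, at 9.42. Over the 19 classes, 7 enzymes followed the mean of the others with a Pearson r of 0.825 or more, and Aldoa (0.914) and Eno1 (0.899) were closest to it. Ldha had an r of 0.41, Pfkl of 0.112 and Hk3 of -0.0603. Among 6844 other genes, the patterns most like the mean of the enzymes were those of Arpc1b (0.908), Tspo (0.891), Ralb (0.886), Atp6v0b (0.878) and Atp6v1e1 (0.874). These correlations describe 19 classes that share libraries and differ in depth.

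In mature neutrophils of the CD45+ BM, 8 of the 10 enzymes rose in 2208L-bearing mice given vehicle compared with WT mice, and 6 fell when tumor-bearing mice received IACS-70654. Of all 11024 genes tested in this class, 4.49% rose with the tumor and 10.9% fell with IACS-70654. A gene was called where edgeR's quasi-likelihood test gave an adjusted p (Benjamini-Hochberg over all genes of the class) under 0.01 and the change was larger than 0.5 on the log2 scale, up or down. The median log2 change of the 10 enzymes was 0.67 with the tumor and -0.67 with IACS-70654, against 0.0039 and 0.0014 over all genes. Values below are CPM normalized by TMM, edgeR's scaling between libraries, in replicates 1 and 2 of each group, and p-values are from that test. They are shares of UMIs, not UMIs per cell. Cells of this class gave a median of 2680.5 and 2731 UMIs in WT, 3537 and 3544 with vehicle, then 4810 and 4785 with IACS-70654. A fall in share with IACS-70654 thus need not be a fall per cell, which was not tested.

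At the first step, Hk2 was at 32.3 and 28.4 CPM in WT, 48.4 and 47.1 with vehicle, then 28.2 and 32.6 with IACS-70654. Both vehicle libraries lay above all others, and those of WT and IACS-70654 overlapped. Hk2 rose by 0.65 on the log2 scale in tumor-bearing mice (SE 0.11, adjusted p = 3.86e-06) and fell by 0.64 with IACS-70654 (SE 0.081, adjusted p = 1.12e-09). The more abundant Hk3 was at 270 and 249 in WT, 229 and 229 with vehicle, then 193 and 198 with IACS-70654. Its groups did not overlap, and it was lower in both comparisons, with the tumor against the direction of the other enzymes, but neither difference passed the fold limit (log2 -0.18, adjusted p = 0.0012, and -0.23, adjusted p = 6.2e-07). Pfkl, the liver-type phosphofructokinase subunit, was the scarcest enzyme, at 6.25 and 5.95 in WT, 17.3 and 17.1 with vehicle, then 7.63 and 10.1 with IACS-70654. It changed most of the 10, rising by 1.49 on the log2 scale with the tumor (SE 0.21, adjusted p = 6.14e-08) and it fell by 0.93 with IACS-70654 (SE 0.135, adjusted p = 4.39e-08).

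Aldoa, the aldolase of most tissues, was at 317 and 299 CPM in WT, 546 and 550 with vehicle, then 341 and 337 with IACS-70654. The vehicle libraries stood clear of both other groups, which lay close together. Aldoa rose by 0.83 (SE 0.038, adjusted p = 6.59e-26) and fell by 0.69 (SE 0.030, adjusted p = 1.27e-27) on the log2 scale. Gapdh, the most abundant of the 10, was at 684 and 692 in WT, 1134 and 1111 with vehicle, then 835 and 837 with IACS-70654. The 3 groups were separate, with IACS-70654 between WT and vehicle. Its rise of 0.71 on the log2 scale was called (SE 0.030, adjusted p = 6.03e-27), whereas its difference of -0.42 with IACS-70654 missed the fold limit (adjusted p = 7.22e-21). Pgk1 was at 184 and 180 in WT, 286 and 280 with vehicle, then 172 and 174 with IACS-70654. Pgk1 with IACS-70654 lay below WT. It rose by 0.64 with the tumor (SE 0.046, adjusted p = 2.46e-17) and fell by 0.71 with treatment (adjusted p = 1.32e-24).

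Pgam1, the mutase that moves the phosphate within phosphoglycerate, was at 141 and 135 CPM in WT, 181 and 175 with vehicle, then 163 and 159 with IACS-70654. The groups did not overlap, but neither log2 difference, 0.36 (adjusted p = 2.36e-07) and -0.14 (adjusted p = 0.0020), passed the fold limit. Eno1, the enolase, was at 183 and 191 in WT, 313 and 295 with vehicle, then 178 and 180 with IACS-70654. Vehicle was again highest, and IACS-70654 lay just below WT. Eno1 rose by 0.70 (SE 0.047, adjusted p = 9.34e-19) and fell by 0.76 (SE 0.036, adjusted p = 7.52e-26) on the log2 scale.

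Pkm, the pyruvate kinase of most cells outside liver and erythrocytes, was at 533 and 576 CPM in WT, 836 and 835 with vehicle, then 522 and 513 with IACS-70654. Both vehicle libraries were higher than every other library. Pkm rose by 0.59 (SE 0.033, adjusted p = 9.56e-22) and fell by 0.69 (adjusted p = 1.57e-28) on the log2 scale. Ldha, the dehydrogenase subunit that favors lactate, was at 137 and 140 in WT, 249 and 252 with vehicle, then 179 and 185 with IACS-70654. Like Gapdh, it was intermediate with IACS-70654. Ldha rose by 0.85 with the tumor (SE 0.051, adjusted p = 7.04e-21), and its difference of -0.46 with treatment missed the fold limit (SE 0.036, adjusted p = 1.93e-16).

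**Figure D2:**
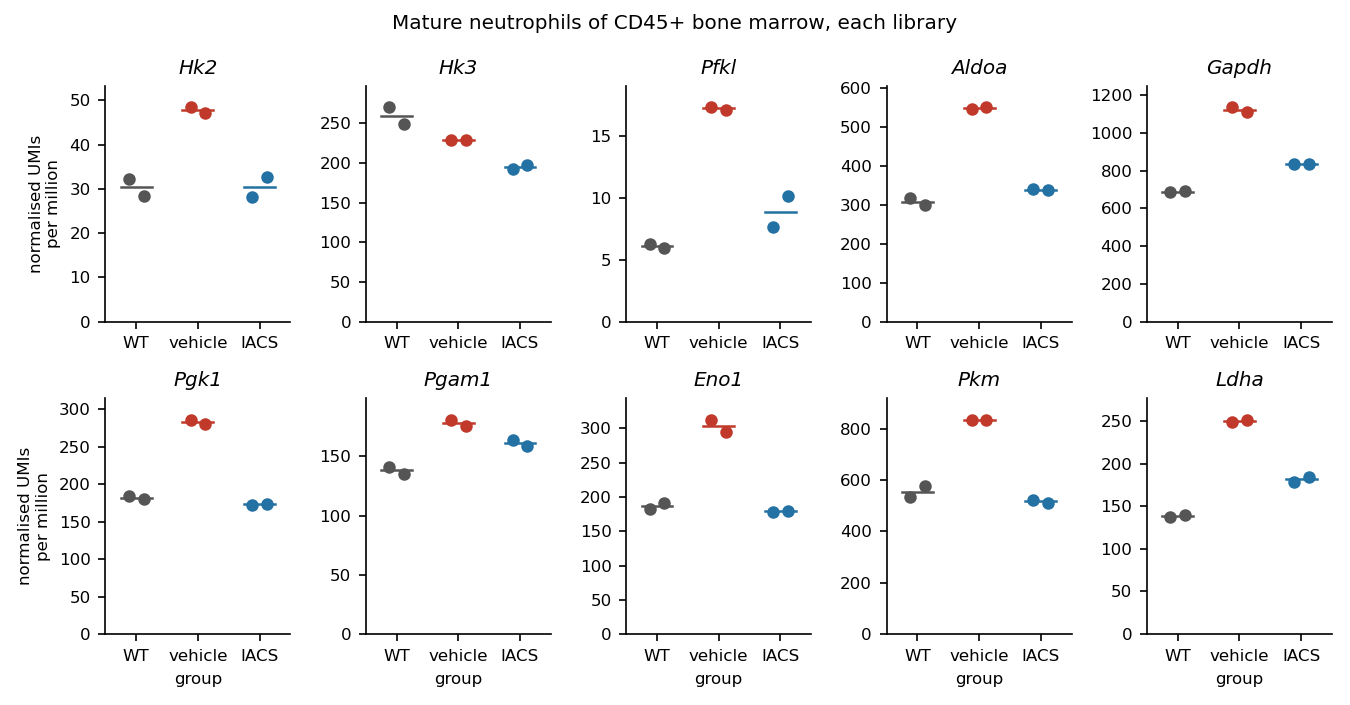
Normalized CPM of each glycolytic enzyme in mature BM neutrophils, 1 panel per enzyme, with 1 point per library (2 libraries per group) and the mean of the group as a line. Vehicle is highest for 9 enzymes, and for Hk3 WT is highest, at 270 and 249.

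The scaling between libraries bears on these counts. In CPM without TMM, the median of all genes shifted by -0.12 on the log2 scale for vehicle against WT and by 0.20 for IACS-70654 against vehicle. The calls over all genes then moved from 495 higher and 371 lower to 345 and 642 with the tumor, and from 1418 and 1200 to 2391 and 642 with IACS-70654. On that scale 7 enzymes rose with the tumor, with Pkm at 0.46, and 3 fell with IACS-70654, namely Eno1, Pfkl and Pgk1, while Aldoa and Pkm (both -0.50) and Hk2 (-0.44) missed the fold limit. The summed enzymes summed to 2515 and 2530 CPM in WT, 3531 and 3537 with vehicle, then 2780 and 2782 with IACS-70654, without normalization.

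The mature class held 3 clusters, led by Ccl6 and Cd101, by Retnlg and Mmp8, and by the interferon-induced genes Ifit1 and Rsad2. The Ccl6 cluster made 40.3% and 40.8% of the class in WT, 49.6% and 50.2% with vehicle, then 41.5% and 40.7% with IACS-70654. The Retnlg cluster made 51.1% and 50.6%, 36.2% and 37.1%, then 46.5% and 46.5%, so that the Ccl6 cluster was the largest with vehicle and the Retnlg cluster in both other groups. The same fit within each cluster, chosen after seeing the data, gave 9, 7 and 6 enzymes higher with the tumor, in the order above, against 3.45%, 3.96% and 1.29% of genes. With IACS-70654 it gave 8, 3 and 5 lower, against 9.16%, 9.60% and 5.89%. Each of the 8 enzymes called in the whole class with the tumor, and of the 6 with IACS-70654, kept its sign in every cluster. In the Retnlg cluster Hk2 was called in neither comparison (log2 0.22 and -0.20), nor were Pfkl (-0.24, adjusted p = 0.377) and Aldoa (-0.42, inside the fold limit) with IACS-70654. In the Ifit1 cluster Pfkl was called in neither (1.14, adjusted p = 0.438, and -1.06, adjusted p = 0.0711), nor was Hk2 with the tumor (0.93, adjusted p = 0.0674). In the Ccl6 cluster Hk2 was at 1.16 and -1.20 and Pfkl at 1.30 and -1.42, both called in each comparison.

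Stage markers, summed over the class, also differed between groups. The 6 markers of the mature stage summed to 39562 to 40603 CPM in WT, 35849 to 36695 with vehicle and 30184 to 30274 with IACS-70654, and the 6 markers of the immature stage to 14019 to 14105, 16982 to 18296 and 32404 to 32905. Their part in the enzyme levels was not tested. The 8 monocyte markers stayed under 378 CPM in every library, and none of them was at 0 in any group.

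Genes related to the pathway moved in the same class. Of 10 HIF-1 targets outside glycolysis that were tested, 6 rose in tumor-bearing mice and 8 fell with IACS-70654. Ankrd37, an ankyrin repeat gene induced by hypoxia, averaged 3.71 CPM in WT, 15.8 with vehicle and 1.97 with IACS-70654 (log2 2.10, adjusted p = 2.84e-10, and -3.01, adjusted p = 3.53e-20). Mif, a cytokine gene, averaged 15.7, 56.7 and 12.5 (log2 1.86, adjusted p = 1.51e-18, and -2.17, adjusted p = 7.07e-28). P4ha1, a collagen prolyl hydroxylase subunit, rose by 1.89 with the tumor, as did Bnip3, a mitophagy receptor, by 1.03 and Egln3, a prolyl hydroxylase that marks HIF for degradation, by 0.68. With IACS-70654, Egln3 fell by 1.59, Bnip3 by 1.44 and Higd1a, a mitochondrial hypoxia gene, by 1.29 on the log2 scale. The median log2 change of the list was 0.60 and -1.05.

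Of 12 genes of glucose and lactate transport and of the regulation of the pathway, 4 rose with the tumor and 8 fell with IACS-70654. Slc16a3, the lactate exporter MCT4, averaged 305 CPM with vehicle and 98.1 with IACS-70654 (log2 -1.63, adjusted p = 7.24e-38). The glucose transporter gene Slc2a1 averaged 44.4 in WT, 79.2 with vehicle and 33.9 with IACS-70654, so that it rose by 0.83 and fell by 1.22 on the log2 scale. Pfkfb2, a kinase that makes the activator of phosphofructokinase, rose by 1.52, Hif1a, the oxygen-regulated subunit of HIF-1, by 0.57, and Slc2a6, a sugar transporter, by 0.50. Pdk1, which holds pyruvate back from mitochondria, fell by 2.41 with IACS-70654, Fbp1, of gluconeogenesis, by 1.36 and Pfkfb4, a relative of Pfkfb2, by 0.94.

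Of 10 other enzymes and isoforms of the pathway, 2 rose in tumor-bearing mice and 3 fell with IACS-70654. Tpi1, the isomerase after aldolase, averaged 29.2 CPM in WT, 77.6 with vehicle and 32.9 with IACS-70654 (log2 1.41, adjusted p = 3.77e-17, and -1.22, adjusted p = 1.19e-21). Pfkp, the platelet-type phosphofructokinase subunit, rose by 0.52 and fell by 0.72, and Eno1b, an Eno1 retrocopy that can share reads with it, fell by 0.81. Among 7 cell cycle genes none was called with the tumor by edgeR (1 had an unadjusted p under 0.05), and Cdk1 and Top2a fell by 0.67 and 0.53 with IACS-70654. Among 8 genes of dissociation stress, Egr1 and Junb rose with the tumor by 0.57 and 0.55, while with IACS-70654 Hspa1a, Jun and Hspa1b rose and Egr1 and Junb fell.

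In immature neutrophils, against backgrounds of 3.84% of genes higher with the tumor and 9.43% lower with IACS-70654, 3 enzymes rose and 2 fell. Gapdh was at 844 and 797 CPM in WT and 1214 and 1193 with vehicle (log2 0.55, adjusted p = 7.17e-32). Ldha went from 233 and 230 to 347 and 336 (log2 0.56, adjusted p = 3.67e-22). Pkm was at 445 and 446 in WT, 669 and 643 with vehicle, then 421 and 407 with IACS-70654, so that vehicle was highest and did not overlap with either group (log2 0.56, adjusted p = 1.04e-27, and -0.67, adjusted p = 5.50e-34). Pgk1 was at 275 and 280 with vehicle, then 184 and 184 with IACS-70654 (log2 -0.59, adjusted p = 1.27e-23). Without TMM none of these 5 differences was called, because the median of all genes shifted by -0.29 and 0.30, and the calls over all genes became 164 higher and 1408 lower in place of 403 and 335, and 2709 and 419 in place of 1302 and 990. The class held a cluster led by Fmnl2 and Ltf, which made 53.2% and 54.2% in WT, 44.1% and 44.3% with vehicle, then 69.0% and 69.7% with IACS-70654, and one led by Cd55 and Ly6g. Within the Ltf cluster none of the 3 rises was called by edgeR (log2 0.38 to 0.43, where 2.29% of genes rose and each unadjusted p was under 0.05), and Pkm fell (-0.50, where 5.93% fell) but not Pgk1 (-0.44). Within the Ly6g cluster all 5 were called, where 3.92% of genes rose and 5.44% fell. The 5 were also not called when the neutrophil stages were clustered without balancing over libraries, nor was Hk2 in mature neutrophils with the tumor (log2 0.42). That clustering gained other calls, so that 12 in place of 11 rose with the tumor and 17 in place of 14 fell with IACS-70654 over the neutrophil classes. The gains were Aldoa, Eno1, Gapdh, Ldha and Pkm in Il1b-rich neutrophils with the tumor, and, with IACS-70654, Pfkl and Pkm in Il1b-rich, Hk2 in immature and Gapdh and Ldha in mature neutrophils. Of 9 HIF-1 targets none was called with the tumor by edgeR (1 had an unadjusted p under 0.05), while with IACS-70654 P4ha1 rose by 1.21 and Higd1a fell by 0.60.

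Il1b-rich neutrophils, a small class of 106 to 423 cells per library, had 6 enzymes lower with IACS-70654, against 3.86% of all 6963 genes. Hk2 was at 85.9 and 86.9 CPM with vehicle, then 37.8 and 38.2 with IACS-70654 (log2 -1.18, adjusted p = 0.000106). Eno1 was at 220 and 202 and then 101 and 125 (log2 -0.88, adjusted p = 4.99e-05), and Aldoa at 431 and 425 and then 282 and 247 (log2 -0.70, adjusted p = 8.34e-06). In each of the 3 the treated libraries lay below both vehicle libraries. Ldha (log2 -0.71, adjusted p = 0.00017), Pgk1 (-0.64, adjusted p = 0.0054) and Pgam1 (-0.56, adjusted p = 0.0059) were also called. DESeq2's Wald test did not call Hk2 (adjusted p 0.0125), Ldha (0.0146), Pgk1 (0.136) or Pgam1 (0.186) in this class. The calls of Pgk1 and Pgam1 were lost when any of the 4 vehicle or IACS-70654 libraries was left out (adjusted p 0.0265 to 0.102 for Pgk1 and 0.0439 to 0.0798 for Pgam1), that of Ldha without vehicle replicate 1 (0.0208) or IACS-70654 replicate 2 (0.0155), and that of Eno1 without vehicle replicate 1 (0.0156). No enzyme was called for vehicle against WT by edgeR, where 5 had an unadjusted p under 0.05 and 2.34% of all genes were called. The largest of these differences was that of Pfkl, from 4.02 and 7.93 CPM in WT to 23.0 and 17.4 with vehicle (log2 1.72, adjusted p = 0.222). Of 9 HIF-1 targets in this class, Ankrd37, P4ha1 and Mif rose with the tumor, as 0.819% of genes did, by 3.70, 3.32 and 2.31 on the log2 scale, and Ankrd37, Mif, Egln3 and Bnip3 fell with IACS-70654 by 2.63, 1.63, 1.34 and 1.00.

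**Figure D3:**
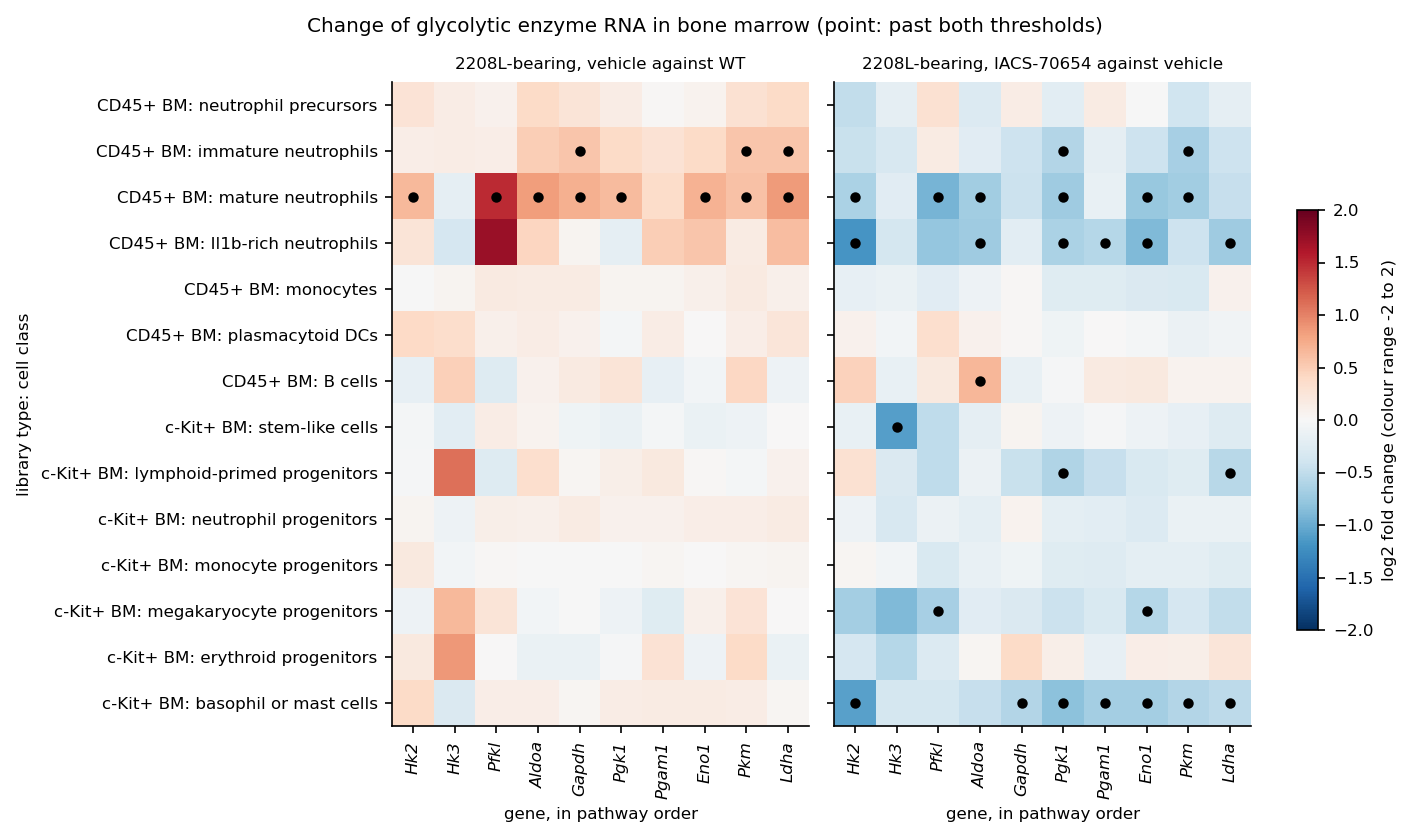
Log2 changes of the 10 glycolytic enzymes in the classes of CD45+ BM and c-Kit+ BM, for vehicle against WT and for IACS-70654 against vehicle, on a color scale from -2 to 2. Rows are classes, columns are enzymes, and a point marks a called pair. The 11 calls with vehicle all lie in mature and immature neutrophils.

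Over the 7 CD45+ classes, 11 of 70 enzyme and class pairs were called with the tumor, all higher, against 1.86% of all gene and class pairs. With IACS-70654, 14 pairs were lower, against 6.51%, and 1 was higher, against 7.05%. Without TMM 7 were lower and 2 higher. The lower ones were Eno1, Pfkl and Pgk1 in mature and Aldoa, Eno1, Hk2 and Ldha in Il1b-rich neutrophils, and Pfkl in precursors was the added higher one (log2 0.60). The 1 pair was Aldoa in B cells, where 3.49% of genes rose with IACS-70654 and 0.760% were called with the tumor, at 125 and 121 CPM with vehicle, then 186 and 200 with IACS-70654 (log2 0.66, adjusted p = 0.0051). Both treated libraries were higher. Neutrophil markers in these B cells summed to 53254 and 84139 CPM with IACS-70654 and 48147 and 54456 with vehicle, groups that overlap, and their part was not tested. That call was lost without any one of 5 libraries, both WT, both vehicle and IACS-70654 replicate 2 (adjusted p 0.016 to 0.10). It was also lost with DESeq2's Wald test (0.0323) and without the 5% of cells with most UMIs (0.0176). Different clusters held most of these B cells. A cluster led by Vpreb3 and Ebf1 made 95.1% and 93.4% of them with vehicle, then 32.0% and 23.8% with IACS-70654, and one led by Cd74 and Ms4a1 made the rest. With 8 cells of the Cd74 cluster in 1 vehicle library no fit was made within the clusters, so a change within cells and a change of cluster cannot be told apart here. In monocytes, precursors and plasmacytoid dendritic cells no enzyme was called in either comparison by edgeR. Of all genes, 1.03% and 6.19% were called in monocytes, 3.88% and 23.2% in precursors and 0.0190% and 1.21% in plasmacytoid dendritic cells, in either direction. At an unadjusted p under 0.05 stood 3 and 4 enzymes in monocytes, 7 and 9 in precursors and 0 and 0 in plasmacytoid dendritic cells, with the tumor and with IACS-70654. DESeq2 called 1 of these pairs, Hk2 in precursors with IACS-70654 (log2 -0.51). By edgeR within the clusters of precursors, 1 enzyme was called higher with the tumor, in a cluster where 1.93% of genes rose. The median log2 change of the enzymes in monocytes was 0.10 and -0.19. Of 11 HIF-1 targets none was called in monocytes by edgeR, with 2 and 1 at an unadjusted p under 0.05. In precursors, where 12.7% of genes rose, 4 of 11 rose with IACS-70654, the direction opposite to that in mature neutrophils, with Mif from 132 to 208 CPM (log2 0.67, adjusted p = 1.14e-06) and Bnip3 at a log2 change of 0.98.

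Whether IACS-70654 acted on the enzymes differently in mature neutrophils was tested by the interaction of class and treatment. Compared with neutrophil precursors, 4 enzymes had a lower change in mature neutrophils, against 6.55% of 12806 genes. They were Pfkl (log2 difference -1.28, adjusted p = 7.33e-09), Eno1 (-0.80, adjusted p = 3.99e-23), Gapdh (-0.61, adjusted p = 7.07e-17) and Pgk1 (-0.55, adjusted p = 1.31e-12). Among precursors a cluster led by Ctsg and Elane made 20.9% and 17.7% of cells with vehicle, then 49.8% and 49.3% with IACS-70654, and its part in these differences was not tested. The call of Pgk1 was lost without IACS-70654 replicate 1, where its difference lay at the fold limit. Compared with monocytes, 5 enzymes had a lower change, against 6.44% of 12415 genes. These were Pfkl (-0.73, adjusted p = 0.0019), Aldoa (-0.61, adjusted p = 5.02e-28), Ldha (-0.57, adjusted p = 8.11e-16), Hk2 (-0.50, adjusted p = 0.000114) and Eno1 (-0.50, adjusted p = 4.2e-13). Without TMM, 5 were called against precursors and none against monocytes, where the median of all genes shifted by 0.25 and the calls over all genes became 1996 higher and 334 lower in place of 1022 and 799. Without IACS-70654 replicate 1 or vehicle replicate 2, 3 of the 5 were called against monocytes, with Hk2 and Pfkl lost. Without vehicle replicate 1 Eno1 and Pfkl were lost, and without IACS-70654 replicate 2 Eno1.

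Among HSPCs, no enzyme was called for vehicle against WT in any of the 7 c-Kit+ classes by edgeR or DESeq2, with 18 of 70 pairs at an unadjusted p under 0.05 by edgeR and 9 by DESeq2. Of all gene and class pairs 1.04% were called. With IACS-70654, 12 pairs fell, against 3.72%, and 7 of them were in basophil or mast cells, where different clusters held most of the class in the groups compared. Without IACS-70654 replicate 1, 6 of the 12 pairs were still called. Stem-like cells had 1, lymphoid-primed progenitors 2 and megakaryocyte progenitors 2.

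The basophil or mast cells held a cluster of 1111 cells led by Ms4a2, Mcpt8 and Prss34, with a median of 6555 UMIs per cell, and a cluster of 705 cells led by Scin, Gzmb and Hs6st2, with 3532. The Mcpt8 cluster made 60.1% and 59.9% of the class in WT, 76.8% and 72.4% with vehicle, then 29.8% and 27.7% with IACS-70654, so that the Gzmb cluster was the larger one with treatment only. Values for the whole class are given first and those within clusters after them.

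Over the whole class of basophil or mast cells 5.40% of genes fell with IACS-70654. Hk2 was at 57.7 and 61.2 CPM with vehicle, then 28.4 and 26.6 with IACS-70654 (log2 -1.08, adjusted p = 7.41e-06). Pgk1 was at 180 and 191 and then 107 and 99.8 (log2 -0.82, adjusted p = 1.26e-09), and Gapdh at 696 and 658 and then 451 and 461 (log2 -0.58, adjusted p = 4.6e-13). In these 3 genes the treated libraries lay below both vehicle libraries. Eno1 and Pgam1 (both -0.67), Pkm (-0.58) and Ldha (-0.52) fell as well. Within the Mcpt8 cluster, by the same fit chosen after seeing the data, 2 of these 7 were called, Ldha (-0.69, adjusted p = 1.04e-05) and Eno1 (-0.58, adjusted p = 0.0069), where 1.53% of genes fell, and Aldoa was called in addition (-0.77, adjusted p = 5.37e-05). The other 5 had log2 changes of -0.76 for Hk2, -0.47 for Pkm, -0.45 for Pgk1, -0.44 for Pgam1 and -0.27 for Gapdh there, with adjusted p of 0.0392 to 0.0659. Within the Gzmb cluster edgeR called no enzyme, where 1.28% of genes fell and Eno1 (-0.52) had an unadjusted p of 0.0070. Gapdh (-0.05) and Hk2 (-0.03) were close to 0 in it, and Ldha (0.11) and Pkm (0.10) had the opposite sign. The lowest number of cells in a library was 39 in the Mcpt8 and 77 in the Gzmb cluster. Without TMM 4 of the 7 were called, Eno1, Hk2, Pgam1 and Pgk1, and the calls over all genes became 750 higher and 345 lower in place of 444 and 534. Eno1 and Hk2 were not called without IACS-70654 replicate 1 (adjusted p 0.0682 and 0.0112), nor was Ldha without vehicle replicate 1 or IACS-70654 replicate 2 (log2 -0.44 and -0.47). Of 9 HIF-1 targets 1 fell in this class, and of 7 cell cycle genes 3 fell.

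In lymphoid-primed progenitors, where 2.21% of genes fell, Ldha was at 277 and 301 CPM with vehicle, then 192 and 196 with IACS-70654 (log2 -0.56, adjusted p = 0.00054). Pgk1 was at 185 and 189 and then 124 and 120 (log2 -0.60, adjusted p = 0.0015). Megakaryocyte progenitors, where 4.60% of genes fell, had Eno1 at 122 and 110 and then 79.9 and 80.4 (log2 -0.56, adjusted p = 1.14e-05). Pfkl was at 42.4 and 44.7 and then 27.1 and 27.0 in these cells (log2 -0.67, adjusted p = 0.0021). Stem-like cells, where 2.58% of genes fell, had Hk3 at 14.8 and 19.8 and then 7.46 and 8.03 (log2 -1.11, adjusted p = 0.0017). In all 5 pairs the treated libraries lay below both vehicle libraries, and each call was lost without at least 1 library. DESeq2's Wald test kept only Ldha in lymphoid-primed progenitors of the 5, with adjusted p of 0.0403 for Pgk1 there, 0.0103 for Eno1 and 0.0894 for Pfkl in megakaryocyte progenitors and 0.0960 for Hk3 in stem-like cells. Without TMM the changes of Ldha in lymphoid-primed progenitors (-0.49) and Eno1 in megakaryocyte progenitors (-0.4972) missed the fold limit. Ldha in lymphoid-primed progenitors was not called without any 1 of the vehicle or IACS-70654 libraries (adjusted p 0.0103 to 0.0258), and Pgk1 there not without vehicle replicate 1, IACS-70654 replicate 1 or IACS-70654 replicate 2 (0.0614, 0.0202 and 0.0234). Without vehicle replicate 1, Eno1 and Pfkl in megakaryocyte progenitors had adjusted p of 0.0612 and 0.0659, and Pfkl had 0.0332 without IACS-70654 replicate 1. Hk3 in stem-like cells had an adjusted p of 0.0318 without vehicle replicate 2 and 0.0428 without IACS-70654 replicate 1.

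Tumor neutrophils were set beside mature BM neutrophils of vehicle-treated mice. In CPM, 9 enzymes were higher in the tumor by more than 0.5 on the log2 scale and Hk3 was lower, where 50.2% of all 9071 genes were higher and 27.0% lower. There was 1 tumor library, no test was made, and tissue, digestion and experiment cannot be told apart. Intervals are exact 95% intervals of the log2 ratio for counting error only. A tumor neutrophil gave a median of 1215 UMIs, against 3537 and 3544 in mature BM neutrophils of vehicle-treated mice.

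Hk2 was at 175 CPM in tumor and 44.2 in BM neutrophils, a ratio of 3.96 (log2 1.99, interval 1.68 to 2.28). Hk3 was at 28.9 and 212, a ratio of 0.136 (log2 -2.87, interval -3.63 to -2.21), from 18 UMIs in the tumor cells. These were fewer than the 20 needed, so Hk3 was counted because of the BM libraries, where it was high. The pair of hexokinases thus lay on opposite sides. Pgam1 was at 659 and 165 (ratio 4.00), Pfkl at 59.5 and 15.9 (ratio 3.73) and Ldha at 791 and 232 (ratio 3.41). These 3 and Hk2 had the largest ratios of the 10. Gapdh was at 2503 and 1040 (ratio 2.41), Eno1 at 675 and 282 (2.40) and Aldoa at 1080 and 508 (2.13). Pgk1 was at 402 and 262 (1.53) and Pkm at 1165 and 774 (1.51).

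The scale decided part of this. With TMM, all genes had a median of -0.60 in place of 0.51, and the genes past the fold from 4558 higher and 2450 lower to 2217 and 4751. On the TMM scale Hk2, Ldha, Pfkl and Pgam1 stayed higher, Hk3 stayed lower, Pkm turned to -0.52 and Pgk1 to -0.50, Aldoa was at -0.02, and Eno1 (0.15) and Gapdh (0.16) were inside the fold limit. The median of the enzymes was 1.26 in CPM and 0.15 after TMM, above that of all genes. TMM moves all ratios by nearly the same amount, so this gap is 1 result and not a separate one on each scale. Per cell, Hk2 had 0.231 UMIs in tumor neutrophils against 0.174 and 0.176 in BM, and Ldha 1.05 against 0.895 and 0.941. Pfkl, at 0.0786 against 0.0621 and 0.0640, and Pgam1, at 0.871 against 0.650 and 0.656, were also higher per cell. For the other 5 of the 9 the order was reversed per cell. Gapdh had 3.31 against 4.08 and 4.16, Aldoa 1.43 against 1.96 and 2.06, and Pkm 1.54 against 3.00 and 3.12. Pgk1 had 0.531 against 1.03 and 1.05, and Eno1 0.892 against 1.12 and 1.11. Hk3 had 0.0382 against 0.825 and 0.855. S100a8 and S100a9 took 3.21% of UMIs in tumor neutrophils and 26.2% and 25.9% in the BM class, and the 5 Il1b-rich stage markers summed to 50707 against 707 to 712 CPM. Their part in the ratios was not tested. Set against Il1b-rich BM neutrophils instead, the same direction held in CPM for all 10 enzymes, with Hk2 at a log2 ratio of 1.06 and Gapdh at 2.29. This was done without TMM, and the share of all genes past the fold is not given. It therefore does not separate the enzymes from a shift of all genes.

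All 10 HIF-1 targets counted were higher in tumor than in BM neutrophils, with a median log2 ratio of 3.10. Mif was at 1016 CPM against 52.5 (log2 4.27), Ero1l, an oxidase of protein folding, had a log2 ratio of 4.44 and Vegfa, the angiogenic growth factor, of 3.70. Of 8 genes of dissociation stress 7 were also higher, Atf3 by 6.93 and Jun by 5.35 on the log2 scale. The methods describe digestion for tumors alone, and its part was not tested. Among 11 transport and regulation genes 3 were higher and 5 lower. Slc2a1 had a log2 ratio of 1.69 and Slc2a3, the high-affinity glucose transporter of myeloid cells, one of -3.14. Of 6 other enzymes 4 were higher, with Tpi1 at 2.77 and Pfkp at 2.32, and Gpi1, which follows hexokinase, was lower at -0.64.

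Tumor macrophages were set beside BM monocytes in the same way, again with 1 tumor library and no test. Ldha was at 543 CPM in macrophages and 219 in monocytes (ratio 2.48), Pfkl at 37.9 and 21.2 (1.78) and Gapdh at 1566 and 1003 (1.56). Hk3 was at 10.2 and 48.2, a ratio of 0.212. The other 6 had ratios of 0.964 to 1.23, so that 3 were higher and 1 lower by the fold limit, where 20.6% and 41.6% of all genes were. After TMM, with a median over all genes of 0.0045 in place of -0.31 and the genes the fold at 3095 higher and 3080 lower in place of 2168 and 4387, Eno1, Hk2 and Pgam1 were higher as well. Of 11 HIF-1 targets 8 were higher, Vegfa by 3.73 on the log2 scale, and 7 of 7 cell cycle genes were lower. Stress genes were higher in 7 of 8, Atf3 by 4.17.

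Hexokinase isoforms were compared within a library, as shares of the summed UMIs of Hk1, Hk2 and Hk3, which does not depend on scaling between libraries. In mature BM neutrophils Hk3 made 80.4% and 80.3% in WT, 70.9% and 71.0% with vehicle, then 73.2% and 72.6% with IACS-70654. The tumor-bearing groups did not overlap with WT. Hk2 made 9.61% and 9.13% in WT, 14.96% and 14.64% with vehicle, then 10.7% and 11.9% with IACS-70654, between the other groups. These shares were not tested. An exact permutation test of 2 libraries against 2 cannot give a p below 0.333.

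In tumor neutrophils Hk2 was the main isoform, at 63.0% with vehicle (Wilson 95% interval 55.6 to 69.8), 62.9% with IACS-70654 (50.5 to 73.8), 64.4% with anti-PD-1 (58.0 to 70.4) and 65.8% with the combination (54.3 to 75.6). The intervals, which cover counting error only, overlapped between all treatments. Hk3 made 10.4%, 11.3% and 14.7% in the first 3 libraries and 2.74% with the combination, from 2 of 73 UMIs (0.755 to 9.45). Macrophages had Hk2 at 75.4% to 80.8% and Hk3 at 7.33% to 13.4%. BM monocytes had Hk2 at 48.4% to 54.6% and Hk3 at 28.2% to 30.7%, below both tumor classes for Hk2 and above both for Hk3. Tumor cells had almost no Hk3 and split their UMIs between Hk1, at 45.9% to 51.8%, and Hk2, and erythroid progenitors had 89.2% to 92.4% Hk1.

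**Figure D4:**
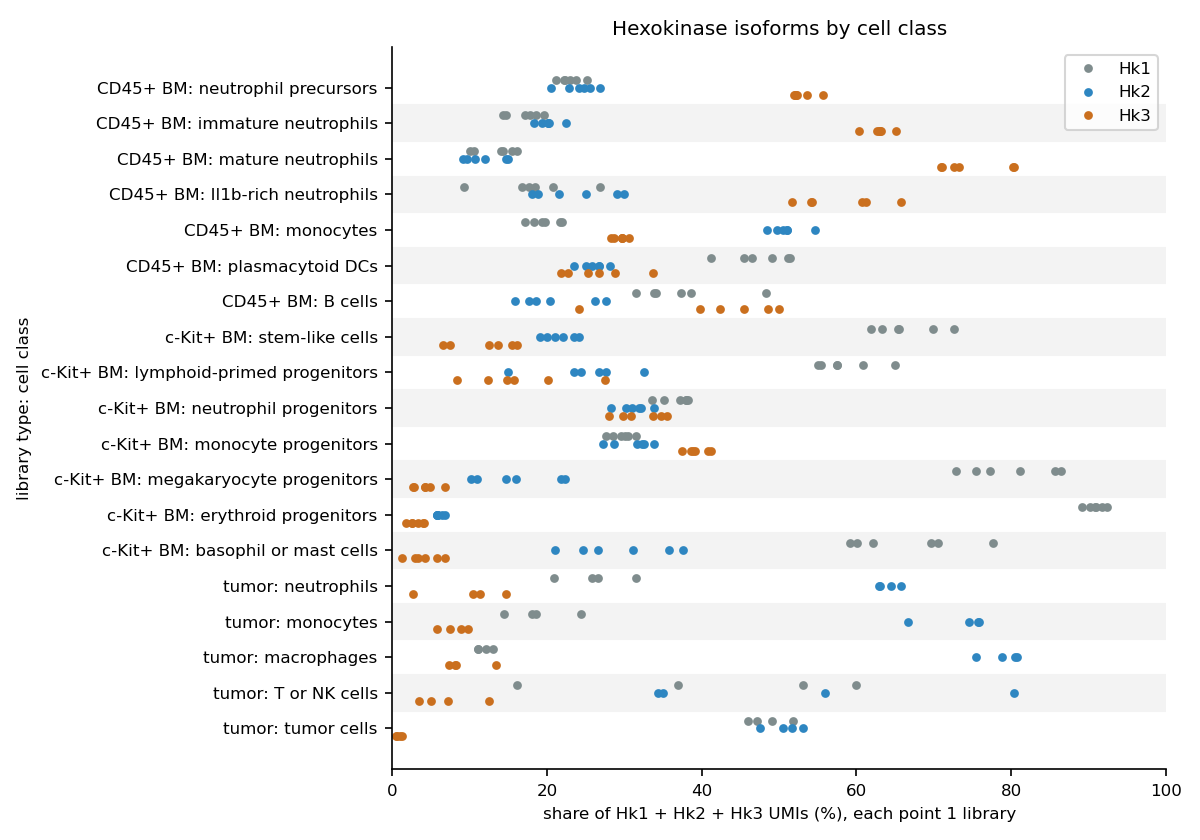
Shares of Hk1, Hk2 and Hk3 in the summed hexokinase UMIs, in percent, in each of the 19 classes, with 1 point per library and isoform. Hk3 makes most of the UMIs in mature BM neutrophils (70.9% to 80.4%) and Hk2 in tumor neutrophils (62.9% to 65.8%).

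Other isoform pairs divided the classes in different ways. Pfkl made 57.5% to 66.8% of phosphofructokinase UMIs in tumor cells but 20.0% to 36.1% in mature BM neutrophils and 26.8% to 37.0% in tumor neutrophils, where Pfkp made most of the rest. Muscle-type Pfkm reached 38.7% to 43.9% in erythroid progenitors. Ldhb, the lactate dehydrogenase subunit of oxidative tissues, made 0.954% to 2.87% of Ldha and Ldhb UMIs in mature BM neutrophils, 12.1% to 20.4% in precursors and 18.5% to 22.6% in tumor cells. Aldoc, the brain aldolase, made 5.62% to 10.5% of aldolase UMIs in tumor cells and at most 0.563% in mature BM neutrophils.

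In tumors, where each treatment had 1 library and no test was made, IACS-70654 was compared with vehicle and the combination with anti-PD-1. These pairs share no library. In neutrophils 7 of the 9 enzymes with enough UMIs were lower with IACS-70654 by more than 0.5 on the log2 scale. Of 4208 genes 16.9% were. With the combination 9 of 10 were lower, against 16.6% of 4820 genes. Enough UMIs were needed in only 1 library of a pair. Hk3 had them with anti-PD-1 but not with the combination, so it was counted because of the library where it was high. Cell numbers were small, at 471 with vehicle, 246 with IACS-70654, 554 with anti-PD-1 and 309 with the combination.

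Hk2 in tumor neutrophils was at 175 CPM with vehicle, 104 with IACS-70654, 181 with anti-PD-1 and 118 with the combination. Both libraries with the inhibitor were the lower of their pair, with log2 ratios of -0.75 (interval -1.32 to -0.21) and -0.61 (-1.12 to -0.13). Aldoa was at 1080, 665, 982 and 540 in the same order, with ratios of -0.70 (-0.92 to -0.49) and -0.86 (-1.08 to -0.64). Pgk1 was at 402, 248, 360 and 190, and Pgam1 at 659, 393, 577 and 308. In each of these genes the libraries without the inhibitor were close to each other. Eno1 was at 675, 438, 653 and 375, Pkm at 1165, 740, 1148 and 740, and Ldha at 791, 537, 649 and 377. Gapdh stood apart, at 2503, 2318, 2174 and 1998, with log2 ratios of -0.11 (-0.23 to 0.010) and -0.12 (-0.24 to -0.00021).

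The remaining enzymes were scarce. Pfkl was at 59.5, 45.4, 55.0 and 27.1 CPM, with log2 ratios of -0.39 (-1.31 to 0.48) and -1.02 (-2.12 to -0.043). Hk3 was at 28.9, 18.7, 41.3 and 4.93, from 18, 7, 33 and 2 UMIs. IACS-70654 against vehicle was thus not counted. The combination gave a log2 ratio of -3.06 (-6.17 to -1.10), counted on the UMIs of the anti-PD-1 library alone. After TMM the counts were 8 and 9, and the genes past the fold went from 697 higher and 711 lower to 407 and 1019, and from 820 and 798 to 447 and 1200. The 11 neutrophil markers in these cells also differed between libraries, at 34924 CPM with vehicle, 28779 with IACS-70654, 40866 with anti-PD-1 and 19937 with the combination. Macrophage markers were at 5470, 3383, 2782 and 3629, and the part of neither list in the ratios was tested.

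**Figure D5:**
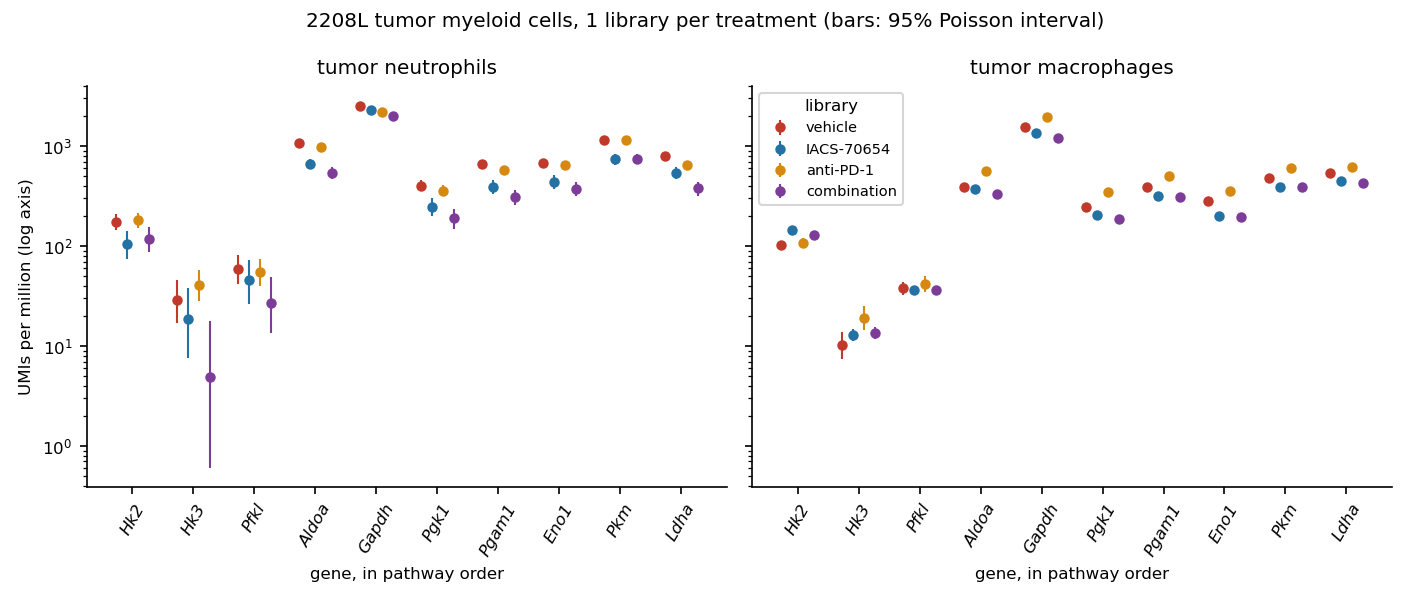
CPM of the glycolytic enzymes in neutrophils and in macrophages of the 4 tumor libraries, on a log axis, with 1 point per library. Bars are 95% Poisson intervals for counting error. In tumor neutrophils Aldoa is at 1080 with vehicle, 665 with IACS-70654, 982 with anti-PD-1 and 540 with the combination.

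HIF-1 targets were lower in the same neutrophils in 7 of 9 with IACS-70654 and 8 of 10 with the combination. Ankrd37 had log2 ratios of -1.45 and -1.41, Ero1l of -1.42 and -1.30 and Bnip3 of -1.01 and -1.27, whereas Vegfa was higher with IACS-70654, at 1.16. The lactate exporter Slc16a3 had ratios of -0.69 and -1.11. Stress genes were lower in 0 of 6 and 1 of 6.

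In tumor macrophages, Eno1 was at 285 CPM with vehicle, 200 with IACS-70654, 359 with anti-PD-1 and 195 with the combination, with log2 ratios of -0.51 (-0.61 to -0.42) and -0.88 (-0.99 to -0.77). Hk2 was at 102, 143, 108 and 130, the only enzyme of the 10 that was higher with the inhibitor in both pairs, at 0.498 and 0.27, inside the fold limit in each. With IACS-70654 1 enzyme was lower, against 11.3% of genes, and after TMM it was Hk2, past the fold on the higher side, and not Eno1. With the combination 7 enzymes were lower, against 13.6% of genes, and 6 after TMM, without Ldha. Pgk1 was at 244, 203, 349 and 188 (combination log2 -0.89), Aldoa at 388, 377, 569 and 331 (-0.78), and Gapdh at 1566, 1348, 1942 and 1212 (-0.68). In these 3 genes anti-PD-1 was the highest library and vehicle the second. Pgam1, Pkm and Ldha had combination ratios of -0.70, -0.64 and -0.55. HIF-1 targets were lower in 4 of 13 with IACS-70654 (median log2 -0.27) and 9 of 13 with the combination (-0.69), and cell cycle genes in 5 of 7 (-0.94) and 6 of 7 (-1.31). A cluster led by Ccl8 and Mrc1 made 24.1% of macrophages with vehicle, 7.43% with IACS-70654, 18.7% with anti-PD-1 and 5.86% with the combination. The part of these lists and of this cluster in the enzyme ratios was not tested.

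In tumor monocytes Hk3 was lower with IACS-70654 (log2 -0.55, interval -1.36 to 0.31) and Pkm with the combination (-0.51, interval -0.60 to -0.41), where 7.94% and 8.78% of genes were lower. Tumor cells had no enzyme past the fold in either pair, where 25.4% and 28.0% of genes were, in either direction. Their Pkm had log2 ratios of 0.21 and 0.30 and their Pgk1 of -0.34 and -0.49. Clusters of tumor cells differed in share, from 12.2% with vehicle to 34.3% with IACS-70654 for 1 of them and from 43.3% to 29.9% for another. The part of these shares was not tested. In T or NK cells Hk2 was higher with the inhibitor, by 2.12 and 0.80 on the log2 scale. The ratios came from 11 and 115 UMIs and from 14 and 47. Of all genes 22.3% and 21.7% were higher. Only the libraries with the inhibitor had enough UMIs for Hk2 to be counted, which favors a ratio on the higher side. Ldha was lower there with the combination, at -0.54, as were 14.1% of genes. Macrophage markers in these T or NK cells went the same way, from 22011 to 56463 and from 11218 to 36602 CPM, and their part was not tested. Over the 5 tumor classes 10 of the 47 enzyme and class pairs with enough UMIs were past the fold with IACS-70654. With the combination 19 of 48 were (21.3% and 39.6%), against 26.4% and 27.6% of all gene and class pairs. These counts include pairs with enough UMIs in only 1 library.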

How the data were processed

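The authors deposited filtered UMI counts per gene and cell from Cell Ranger multi for 16 3′ libraries multiplexed with CellPlex tags. The submitters' processing notes name Cell Ranger, Seurat and mm10. Barcodes were kept at above 200 and below 6000 detected genes with mitochondrial UMIs of no more than 10%, then clustered and named from markers. Clustering used 2000 variable genes, from which the enzymes were left out, and 30 principal components (numpy 2.4.6). It used 20 neighbors (scikit-learn 1.9.0) and Leiden resolution 1 (leidenalg 0.10.2). For neutrophil stages, balanced over libraries, the resolution was 0.8. Tags removed doublets between samples, and others were not called.

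UMI counts were summed per library and class and tested with edgeR 4.0.16 (quasi-likelihood, TMM, all 6 libraries of a BM sort). Calls needed a Benjamini-Hochberg adjusted p under 0.01 and a change larger than 0.5 on the log2 scale. In tumors, with 1 library per treatment, ratios with at least 20 UMIs in 1 library were compared with 0.5 on the log2 scale. The script recovered known changes in simulated counts. These changes were larger than the fold limit, balanced in direction and drawn with a single dispersion. The simulation therefore does not cover changes near the limit or a shift in scaling between groups. Every enzyme is named, and of other lists at most 5 genes past the limits per comparison, by size. The enzymes and lists were chosen with earlier results of these data known. DESeq2 1.42.0, other filters, scalings, cell sets, the replicate block and leaving out each replicate were alternatives, and CPM without TMM and fits within the clusters of a class (at least 20 cells in every library) were added after seeing the data. Gapdh, Aldoa, Pgk1, Pgam1 and Ldha each have annotated processed pseudogenes, so their counts are uncertain where reads were shared.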

Additional observations from a re-analysis of the deposited data

Results flagged for a closer look

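In mature BM neutrophils the change with IACS-70654 differed from that in another class of the same libraries by the test of the interaction in edgeR. Against neutrophil precursors the log2 differences were -1.28 for Pfkl, -0.80 for Eno1, -0.61 for Gapdh and -0.55 for Pgk1. Against monocytes they were -0.73 for Pfkl, -0.61 for Aldoa, -0.57 for Ldha, and -0.50 for both Hk2 (-0.5012) and Eno1 (-0.5011). Hk2 and Eno1 lie at the fold limit. Of all genes, 6.55% had a lower change against precursors and 6.44% against monocytes. Without TMM no enzyme was called against monocytes. The calls of Hk2, Pfkl and Eno1 against monocytes, and of Pgk1 against precursors, were lost when certain single libraries were left out.

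In tumors, some enzymes had log2 ratios of opposite sign in different classes, in both comparisons with the inhibitor, and these differences were not tested. The values given here are for IACS-70654 against vehicle, with 1 library each. All ratios on the higher side lay inside the fold limit, at 0.498 for Hk2 in macrophages, 0.21 for Pkm and 0.13 for Gapdh in tumor cells. For Hk2 the log2 ratio in macrophages minus that in neutrophils was 1.25, and minus that in tumor cells 0.86. For Pkm the ratio in tumor cells exceeded that in macrophages by 0.50, in monocytes by 0.45 and in neutrophils by 0.87. For Gapdh the ratio in tumor cells exceeded that in macrophages by 0.34.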

How the results depend on the processing

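The counts of enzymes called moved with the fold limit, the scaling and, in c-Kit+ BM and the interaction with monocytes, with single libraries. With an adjusted p under 0.05 and no fold limit, 40 of 70 pairs were called with IACS-70654 in CD45+ BM, 36 lower and 4 higher. With the tumor 27 were called there, 26 higher and 1 lower. For c-Kit+ BM the counts were 41 with IACS-70654 (38 lower and 3 higher) and 7 with the tumor (5 higher and 2 lower). Each interaction had 8 enzymes called, all lower. The share of all genes at this threshold is not given, so these counts are no result about the enzymes. Without TMM the counts were 9 (7 lower and 2 higher), 7 and 7 for CD45+ BM with IACS-70654, CD45+ BM with the tumor and c-Kit+ BM with IACS-70654, and 0 for the interaction with monocytes, where DESeq2 size factors gave 8. With TMM in place of CPM, 6 enzymes were past the fold between tumor and BM neutrophils and 7 between macrophages and BM monocytes, with Aldoa at -0.0217, Pgk1 at -0.50 and Pkm at -0.52 in neutrophils. Tumor monocytes in place of macrophages also gave 7.

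Leaving out 1 replicate gave 11 to 14 calls in CD45+ BM with IACS-70654, 11 to 12 with the tumor, 6 to 12 in c-Kit+ BM with IACS-70654 and 0 to 0 with the tumor, 3 to 4 against precursors and 3 to 5 against monocytes. It left 10 to 10 and 4 to 4 past the fold between tumor and BM. The lowest c-Kit+ count came without IACS-70654 replicate 1, and the lowest against monocytes without that library or vehicle replicate 2. Same-numbered replicates did not deviate together (correlations of -0.07 to 0.056 over genes). Counting error lowers such correlations, so the check cannot tell whether they share more than a number. The replicate block gave 16, 11, 12 and 0 calls, in which all 15, 11, 12 and 0 calls without it were shared. DESeq2's Wald test gave 11, 12, 9 and 0. Within clusters, Ldha (0.11) and Pkm (0.10) turned higher in the Gzmb cluster of basophil or mast cells with IACS-70654, where none of the 7 calls was kept, and 2 of 7 were kept in the Mcpt8 cluster. Depth limits the scarce enzymes, with 109 Pfkl and 60 Hk3 UMIs in the 4 tumor neutrophil libraries together.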
